A study of Homo sapiens with 24 samples.

Results

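A set of 31 genes of cholesterol and fatty acid synthesis and of the SREBP switch that drives them were followed in tumors treated with IK-595. The members were taken from a list by symbol, 31 of the 60230 genes in the table. The sterol arm held 18 enzymes from acetoacetyl-CoA to cholesterol, the fatty acid arm held 8 enzymes, and 5 further genes encoded regulators and a sterol carrier. All 31 members passed the filter on low counts, which left 18242 genes to test.

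The tumors were grown in mice from AsPC-1, an established line of human pancreatic ductal adenocarcinoma. IK-595, described by the labels as a molecular glue between MEK and RAF, 2 kinases of the MAPK pathway, was given by mouth at 6 mg/kg, in 3 doses on alternate days, and control mice got vehicle alone (DMSO in polyethylene glycol). Tumors of IK-595 mice were taken 2, 4, 8, 24 and 48 h after the last dose and tumors of vehicle mice at 2 h, 4 animals in each of 6 groups, to follow expression over time. Vehicle tumors exist at 2 h alone, so the later comparisons with vehicle also differ in time since dosing, and all tumors came from a single cell line. Total counts per tumor ran from 10516000 to 20639340, and were 19681656 to 20578007 in vehicle tumors and 11259182 to 14857030 at 8 h. The 10 epithelial carcinoma markers were all tested, and their summed level was 6120 to 15800 CPM in the 24 tumors. CPM are counts scaled by each tumor's total depth and its TMM factor.

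Cells make cholesterol and fatty acids from acetyl-CoA. The transcription factors SREBP-1 and SREBP-2 sit in the endoplasmic reticulum membrane bound to SCAP, which escorts them to the Golgi for release when sterols are low, while INSIG proteins hold SCAP back when sterols are plentiful. SREBP-2 mainly drives sterol genes and SREBP-1c mainly fatty acid genes, with NF-Y and Sp1 commonly bound beside them.

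Promoter sequences show a feature found in most of the members that could be searched. The list was of SREBP-driven genes and NF-Y commonly binds beside SREBPs, so this feature is not independent of the choice. RefSeq promoters (GRCh38.p14, a window mostly upstream of each gene start) were found for 27 of the 31 members, 36 promoters in all. The NF-Y box CCAAT, searched on both strands, was in 25 of these 36 promoters (69.4%), against 34.3% of 17450 promoters of all tested genes. It was found in 21 of 27 member genes: 13 of 15 sterol arm genes, 5 of 7 fatty acid arm genes and 3 of 5 regulator and carrier genes. PMVK, CYP51A1, ELOVL6, FADS1, SCAP and SREBF1 had none. The Sp1 box GGGCGG was in 86.1% of member promoters, against 63.1% of those of tested genes, and the E-box CACGTG in 16.7%, against 8.87%. The sterol regulatory element as TCACNCCAC was in 1 member promoter, that of SREBF2, and in 1.09% of promoters of tested genes. These matches are letters in a window and were not tested as binding sites. The stretches around the matches are shown for 7 members picked because they hold a match and their expression is described below. Other described members with a match are not shown. For a gene with several promoters, the promoter with the most CCAAT matches was taken. HMGCS1 and IDI1 each also had a promoter with Sp1 boxes and no CCAAT. CYP51A1, ELOVL6, SCAP and SREBF1, whose values are also given for every tumor, held no CCAAT. Capitals mark CCAAT or its reverse complement ATTGG and, in SREBF2, also the sterol regulatory element.
HMGCS1: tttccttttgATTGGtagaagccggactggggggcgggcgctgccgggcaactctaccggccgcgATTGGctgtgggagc
IDI1: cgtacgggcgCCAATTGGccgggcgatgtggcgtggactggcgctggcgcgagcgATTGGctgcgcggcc
SC5D: ccggtcgctgATTGGctggccgctc
ELOVL5: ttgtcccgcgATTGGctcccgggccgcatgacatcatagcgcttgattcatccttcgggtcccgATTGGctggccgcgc
SCD: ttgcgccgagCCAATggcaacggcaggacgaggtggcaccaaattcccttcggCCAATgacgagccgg
STARD4: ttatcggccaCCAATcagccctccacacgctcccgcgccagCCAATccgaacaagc
SREBF2: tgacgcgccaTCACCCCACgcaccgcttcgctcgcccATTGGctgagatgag
Each stretch reads along the gene's own strand. The HMGCS1 stretch is chr5:43313498-43313577 on the minus strand, the IDI1 stretch chr10:1048959-1049028 on the minus strand and the SC5D stretch chr11:121292705-121292729 on the plus strand. The ELOVL5 stretch is chr6:53349004-53349082 on the minus strand, the SCD stretch chr10:100346994-100347061 on the plus strand and the STARD4 stretch chr5:111512651-111512706 on the minus strand. The SREBF2 stretch is chr22:41832962-41833013 on the plus strand. In IDI1 a pair of boxes, 1 on each strand, overlapped.

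In vehicle tumors the sterol arm was the more abundant arm per transcript length. Its 18 genes summed to 1350 ± 282 TPM (transcripts scaled to a fixed total per tumor and to length; SD, n = 4), and the 8 fatty acid genes to 278 ± 60.3 TPM. The most abundant members were FDPS (255 ± 58.2 TPM), which makes farnesyl diphosphate, and FDFT1 (212 ± 43.3 TPM), the squalene synthase. CYP51A1, the lanosterol demethylase, followed at 141 ± 22.2 TPM. The lowest were FADS1 (6.39 ± 1.64 TPM), the delta-5 desaturase, and ACACA (13.8 ± 2.84 TPM), the carboxylase that commits acetyl-CoA to fatty acids. Vehicle tumors were not alike: tumor 3 had the lowest CPM of the 4 in 31 of 31 members, and tumor 1 the highest in 28.

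Both arms dipped at 2 h, lay near vehicle after 4 h, were lowest at 8 h and lay between at 24 and 48 h. Counts were compared with edgeR's quasi-likelihood test over all 24 tumors, and a gene is called where its Benjamini-Hochberg adjusted p over all tested genes was under 0.05. Values after a gene are log2 fold changes ± standard error on CPM with n = 4 tumors a group. The animals were separate per the labels, so these tests measure the spread between tumors. In bulk tumor RNA, fewer cells of a type and less RNA per cell cannot be told apart. Over the 5 times together, 22 of 31 members were called by the F test, against 49.8% of all genes tested.

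**Figure D1:**
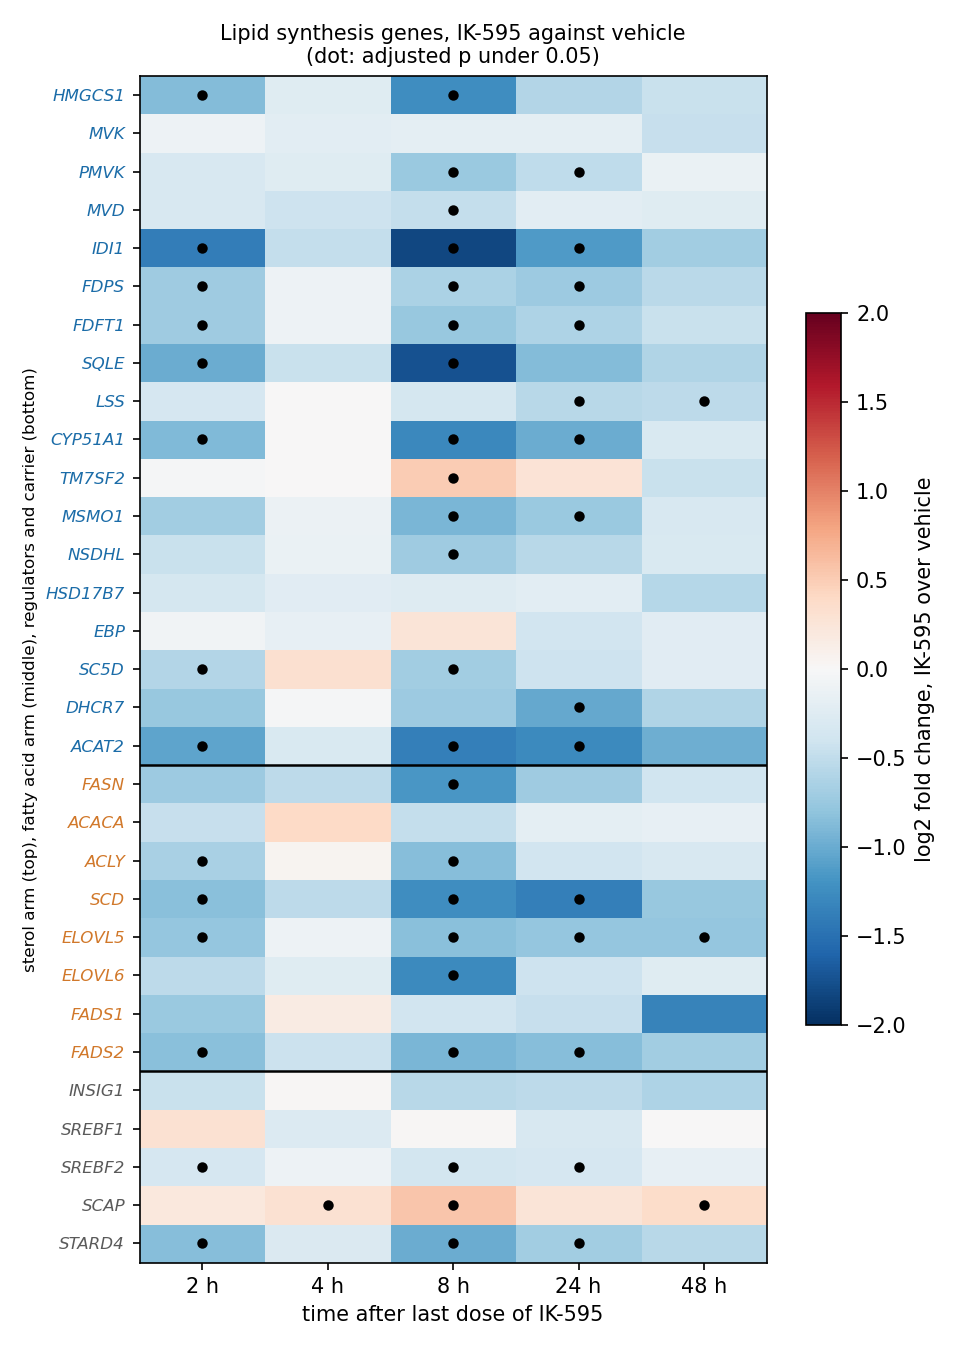
Log2 fold change of each of the 31 members (rows, grouped as sterol arm, fatty acid arm, and regulators and carrier) in IK-595 over vehicle tumors at 5 times after the last dose (columns), with n = 4 tumors a group; a dot marks an adjusted p under 0.05. Of the members 14 are called lower at 2 h, 0 after 4 h, 20 at 8 h, 14 after 24 h and 2 at 48 h, and SCAP is above vehicle in every column.

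At 2 h, the time matched with vehicle, 14 of 31 members fell, against 13.6% of all genes tested called lower and 13.4% called higher. Of the sterol arm 8 of 18 fell and of the fatty acid arm 4 of 8, and the median changes were -0.64 for the sterol arm, -0.74 for the fatty acid arm and 0.05 for all genes tested. The largest falls were in IDI1 (-1.39 ± 0.27), ACAT2 (-1.06 ± 0.33), SQLE (-1.0 ± 0.34), CYP51A1 (-0.89 ± 0.27) and HMGCS1 (-0.87 ± 0.24), with adjusted p from 0.00106 to 0.0344. ACAT2 joins acetyl-CoA units at the head of the pathway, HMGCS1 makes HMG-CoA, IDI1 makes the isomer needed for chain building, and SQLE oxidizes squalene. Of fatty acid genes SCD, the desaturase that makes oleate (-0.84 ± 0.31), FADS2, the delta-6 desaturase (-0.83 ± 0.23), ELOVL5, an elongase of polyunsaturated chains (-0.78 ± 0.23), and ACLY, which makes cytosolic acetyl-CoA from citrate (-0.65 ± 0.22), fell. FDPS (-0.71 ± 0.20), FDFT1 (-0.71 ± 0.20), SC5D (-0.59 ± 0.22), SREBF2 (-0.33 ± 0.12) and STARD4 (-0.85 ± 0.25) completed the 14. The count rested on single tumors: it was 2 without vehicle tumor 1, 8 without vehicle tumor 2, 9 without vehicle tumor 4, 7 without 2 h tumor 2 and 5 without 2 h tumor 4. FADS2 and IDI1 were the members called whichever of the 8 tumors was left out.

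At 4 h no member was called lower by edgeR, DESeq2 or limma-voom, with 1 member lower at an unadjusted p under 0.05 by edgeR, against 8.39% of all genes called lower. The arm medians were -0.15 for the sterol arm and -0.18 for the fatty acid arm. IDI1 was at -0.47 ± 0.27, SCD at -0.52 ± 0.31 and CYP51A1 at 0.00 ± 0.27, none of them called. SCAP, the escort of the SREBPs, rose by 0.30 ± 0.10 (adjusted p = 0.0418), against 6.74% of all genes called higher, a call lost without vehicle tumor 3, vehicle tumor 4, 4 h tumor 2 or 4 h tumor 4 (0.28 to 0.35 over all left-out tumors). Of 11 other alternatives in method or setting, the SCAP call was kept in 5.

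At 8 h 20 of 31 members fell, against 23.7% of all genes called lower, and SCAP and TM7SF2 rose, against 20.6% called higher. Of the sterol arm 12 of 18 fell (median -0.71) and of the fatty acid arm 6 of 8 (median -0.88), with a median of 0.07 over all genes tested. The largest falls were in IDI1 (-1.82 ± 0.28, adjusted p = 2.42e-05), SQLE (-1.74 ± 0.35, adjusted p = 0.000414), ACAT2 (-1.36 ± 0.33), CYP51A1 (-1.29 ± 0.27) and ELOVL6 (-1.27 ± 0.22, adjusted p = 9.89e-05). ELOVL6 lengthens palmitate to stearate, the main substrate of SCD, which also fell (-1.25 ± 0.31). HMGCS1 (-1.24 ± 0.24), FASN, the fatty acid synthase (-1.17 ± 0.32), STARD4, which carries cholesterol between membranes (-0.99 ± 0.25), MSMO1 and FADS2 (-0.91 each, ± 0.27 and ± 0.23) and ACLY (-0.85 ± 0.22) fell as well. The other members that fell, with changes of -0.83 to -0.36, were ELOVL5, FDFT1, PMVK, NSDHL, SC5D, FDPS, MVD and SREBF2. TM7SF2, a sterol C14 reductase, had 18.4, 21, 18.1 and 19.7 CPM in 8 h tumors, against 18, 12.8, 10 and 13.3 CPM in vehicle tumors. It rose by 0.51 ± 0.19 (adjusted p = 0.0333) with no overlap of the groups, a call lost without vehicle tumor 2, 3 or 4 or without 8 h tumor 2 or 4. The TM7SF2 call was kept in 6 of 11 other alternatives. The summed epithelial carcinoma markers were also lowest at 8 h (median 9310 CPM, against 11900 CPM in vehicle tumors), with 6120 CPM in 8 h tumor 3, which was the lowest of its group in 26 of 31 members, and their part in the result was not tested. Of the 22 calls 17 held whichever tumor was left out, among them those of IDI1, SQLE, ACAT2, CYP51A1, ELOVL6, SCD, FASN and SCAP.

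At 24 h 14 of 31 members were lower than in vehicle, against 13.8% of all genes called lower and 13.7% called higher. Of the sterol arm 9 of 18 fell and of the fatty acid arm 3 of 8, with arm medians of -0.57 and -0.59. The largest falls were in SCD (-1.36 ± 0.31), ACAT2 (-1.27 ± 0.33), IDI1 (-1.13 ± 0.27), DHCR7 (-1.02 ± 0.34) and CYP51A1 (-1.0 ± 0.27), with adjusted p from 0.00327 to 0.031. DHCR7 catalyses the last step to cholesterol, and LSS, which closes the sterol ring, was also lower (-0.56 ± 0.16). The count was 6 without vehicle tumor 1, 8 without vehicle tumor 2, vehicle tumor 4 or 24 h tumor 1, 9 without 24 h tumor 2 and 7 without 24 h tumor 4. ACAT2, CYP51A1, FADS2, FDPS, IDI1 and SCD stayed called whichever tumor was left out.

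At 48 h ELOVL5 (-0.77 ± 0.23, adjusted p = 0.0298) and LSS (-0.53 ± 0.16, adjusted p = 0.0404) were lower and SCAP was higher (0.37 ± 0.10, adjusted p = 0.0167), against 4.46% of all genes called lower and 5.52% called higher. The medians of -0.44 for the sterol arm and -0.54 for the fatty acid arm lay below that of all genes (-0.01), and 13 members were lower at an unadjusted p under 0.05. The SCAP call was lost without 48 h tumor 2 or 4 (0.35 each), and was kept in 8 of 11 other alternatives. The count of lower members was 0 without vehicle tumor 1, 2 or 4 or without 48 h tumor 2 or 4, 1 without 48 h tumor 1, 7 without vehicle tumor 3 and 10 without 48 h tumor 3. FADS1 had a change of -1.33 ± 0.50 at 48 h that was not called (adjusted p = 0.0963), at 2.18 ± 0.644 CPM in 48 h tumors and 5.5 ± 1.66 CPM in vehicle tumors.

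**Figure D2:**
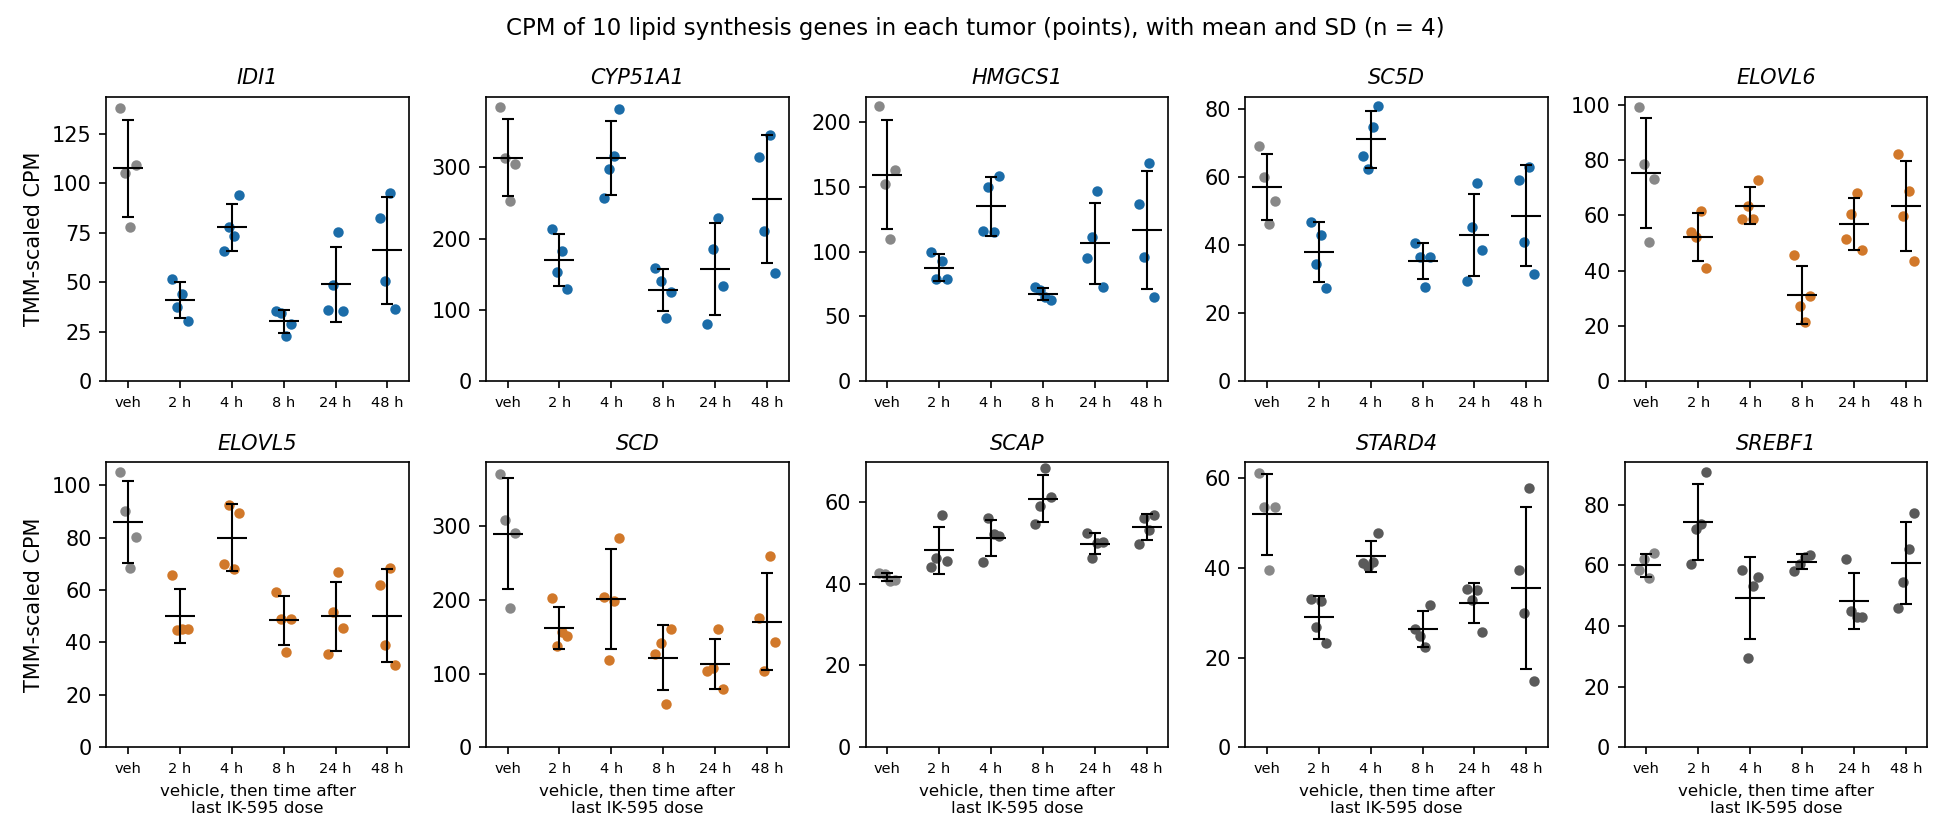
CPM of 10 members in each tumor (points; light grey for vehicle) with mean and SD of the 4 tumors, from vehicle through 2, 4, 8, 24 and 48 h after the last IK-595 dose; each panel has its own scale from 0. IDI1 averages 30.3 CPM at 8 h and 107 CPM in vehicle tumors, and the vehicle values of SCAP lie below all 20 IK-595 values.

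The sterol members with the smallest F test p were IDI1, CYP51A1, HMGCS1 and SC5D; positions are those of the whole gene in GRCh38. IDI1 (ENSG00000067064.12, chromosome 10 from 1039152 to 1049170, minus strand) had 138, 105, 77.7 and 109 CPM in vehicle tumors, 51.8, 37.7, 44.0 and 30.2 CPM at 2 h and 65.8, 77.9, 73.5 and 93.8 CPM at 4 h. It had 35.3, 34.5, 22.8 and 28.9 CPM at 8 h, 36.2, 48.5, 75.6 and 35.3 CPM after 24 h and 82.2, 50.6, 95.0 and 36.5 CPM at 48 h. All tumors at 2, 8 and 24 h lay below the lowest vehicle tumor, while the 4 h and 48 h groups overlapped vehicle.

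CYP51A1 (ENSG00000001630.17, chromosome 7 from 92112151 to 92134803, minus strand) had 384, 313, 253 and 304 CPM in vehicle tumors, 214, 153, 182 and 130 CPM at 2 h and 257, 298, 316 and 381 CPM at 4 h. It had 159, 140, 89.1 and 125 CPM at 8 h, 80.7, 185, 229 and 134 CPM after 24 h and 314, 211, 345 and 152 CPM at 48 h. The 4 h values lay within the vehicle range, and 48 h tumors were split between 2 at vehicle level and 2 below it. CYP51A1 has 3 named pseudogenes that could share reads.

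HMGCS1 (ENSG00000112972.15, chromosome 5 from 43289395 to 43313512, minus strand) had 212, 152, 110 and 163 CPM in vehicle tumors, 99.4, 78.8, 92.8 and 78.6 CPM at 2 h and 116, 150, 115 and 158 CPM at 4 h. It had 72.5, 70.1, 65.0 and 62.3 CPM at 8 h, 94.9, 111, 147 and 72.9 CPM after 24 h and 137, 95.9, 168 and 65.3 CPM at 48 h. The 8 h tumors were tightly grouped at 67.5 ± 4.65 CPM (SD, n = 4), below every vehicle tumor, as were the 2 h tumors.

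SC5D (ENSG00000109929.10, chromosome 11 from 121292453 to 121308694, plus strand), the desaturase that acts just before DHCR7, had 69.0, 60.1, 46.2 and 53.0 CPM in vehicle tumors, 46.9, 34.6, 42.9 and 27.3 CPM at 2 h and 66.1, 62.4, 74.8 and 81.0 CPM at 4 h. It had 40.5, 36.6, 27.8 and 36.5 CPM at 8 h, 29.6, 45.3, 58.2 and 38.6 CPM after 24 h and 59.1, 41.0, 62.9 and 31.5 CPM at 48 h. Its 4 h tumors included 2 above the highest vehicle tumor, and the change of 0.32 ± 0.21 there was not called.

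Of the fatty acid arm, ELOVL6, ELOVL5 and SCD had the smallest F test p. ELOVL6 (ENSG00000170522.10, chromosome 4 from 110045846 to 110199199, minus strand) had 99.0, 78.6, 50.4 and 73.1 CPM in vehicle tumors, 54.1, 52.2, 61.4 and 40.8 CPM at 2 h and 58.6, 63.5, 58.6 and 72.9 CPM at 4 h. It had 45.8, 27.1, 21.3 and 30.8 CPM at 8 h, 51.3, 60.4, 68.1 and 47.4 CPM after 24 h and 82.0, 59.7, 68.7 and 43.3 CPM at 48 h. Among the 5 times, ELOVL6 was called against vehicle at 8 h alone, and the 8 h tumors lay below all vehicle tumors.

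ELOVL5 (ENSG00000012660.14, chromosome 6 from 53267398 to 53349179, minus strand) had 105, 90.1, 68.5 and 80.1 CPM in vehicle tumors, 65.6, 44.6, 45.1 and 45.0 CPM at 2 h and 70.0, 92.4, 68.1 and 89.4 CPM at 4 h. It had 59.2, 48.9, 36.4 and 49.0 CPM at 8 h, 35.6, 51.5, 67.0 and 45.6 CPM after 24 h and 62.0, 39.0, 68.5 and 31.3 CPM at 48 h. It was called lower at 4 of 5 times, with changes of -0.83 to -0.77. The 48 h call was lost on dropping vehicle tumor 1, 2 or 4 or else 48 h tumor 2 or 4, and in 4 of 11 other alternatives, and without it ELOVL5 is called at 3 times like 9 other members. Its 2, 8 and 24 h tumors lay below all vehicle tumors, while the highest 48 h tumor and the lowest vehicle tumor both had 68.5 CPM.

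SCD (ENSG00000099194.6, chromosome 10 from 100347124 to 100364834, plus strand) had 371, 308, 189 and 291 CPM in vehicle tumors, 202, 137, 157 and 151 CPM at 2 h and 204, 119, 198 and 284 CPM at 4 h. It had 126, 142, 58.3 and 160 CPM at 8 h, 104, 108, 161 and 79.1 CPM after 24 h and 175, 104, 259 and 143 CPM at 48 h. The 8 h and 24 h tumors lay below all vehicle tumors. SCD has 1 named pseudogene.

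SCAP, STARD4 and SREBF1 had the smallest F test p of the regulators and carrier. SCAP (ENSG00000114650.20, chromosome 3 from 47413694 to 47477126, minus strand) had 42.5, 42.4, 40.7 and 40.9 CPM in vehicle tumors, 44.0, 46.3, 56.7 and 45.5 CPM at 2 h and 45.3, 56.0, 52.1 and 51.6 CPM at 4 h. It had 54.5, 58.9, 68.3 and 61.3 CPM at 8 h, 52.5, 46.4, 49.9 and 50.3 CPM after 24 h and 49.6, 56.0, 53.2 and 56.7 CPM at 48 h. All 20 IK-595 tumors lay above the highest vehicle tumor, and the rise was called at 4, 8 and 48 h (0.55 ± 0.10 at 8 h), not at 2 h (0.21 ± 0.10, adjusted p = 0.12) or 24 h (0.26 ± 0.10, adjusted p = 0.0548).

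STARD4 (ENSG00000164211.13, chromosome 5 from 111496033 to 111512590, minus strand) had 61.2, 53.6, 39.5 and 53.6 CPM in vehicle tumors, 33.1, 26.8, 32.5 and 23.3 CPM at 2 h and 41.1, 40.1, 41.4 and 47.7 CPM at 4 h. It had 26.4, 24.7, 22.3 and 31.7 CPM at 8 h, 35.2, 32.8, 35.1 and 25.8 CPM after 24 h and 39.5, 29.9, 57.8 and 14.8 CPM at 48 h. The 2, 8 and 24 h tumors lay below all vehicle tumors, and the 48 h tumors were the most spread.

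SREBF1, which encodes SREBP-1 (ENSG00000072310.18, chromosome 17 from 17810399 to 17837002, minus strand), had 58.3, 62.2, 55.7 and 64.0 CPM in vehicle tumors, 60.6, 72.1, 73.5 and 90.9 CPM at 2 h and 58.5, 29.4, 53.1 and 56.0 CPM at 4 h. It had 58.1, 60.5, 62.8 and 63.4 CPM at 8 h, 62.0, 45.1, 43.0 and 42.8 CPM after 24 h and 45.8, 54.5, 65.3 and 77.2 CPM at 48 h. All 4 h values lay below all 2 h values. The lowest, 29.4 CPM, was of 4 h tumor 2, which had the lowest total counts of all tumors and 29600 CPM of fibroblast and pericyte markers. In TPM SREBF1 was 28.5 ± 0.867 at 4 h, 37.4 ± 6.42 at 2 h and 31.8 ± 1.95 in vehicle tumors (SD, n = 4 each). Against vehicle SREBF1 was called at 0 of 5 times by edgeR, with changes from -0.32 ± 0.18 at 24 h to 0.31 ± 0.18 at 2 h. SREBF2, for SREBP-2, fell at 2 h (-0.33 ± 0.12), 8 h (-0.36 ± 0.12) and 24 h (-0.33 ± 0.12). The call at 2 h was lost in 7 of 8 fits that left out a tumor (all but that without vehicle tumor 3; -0.39 to -0.29) and in 5 of 11 other alternatives. The call at 24 h was lost in 5 of 8 such fits (those lacking vehicle tumor 1, 2 or 4, or else 24 h tumor 1 or 4; -0.39 to -0.28) and in 8 of 11 other alternatives, and the call at 8 h on dropping vehicle tumor 1 or 2. Over the 5 times together SREBF1 passed the F test (adjusted p = 0.0475) and SREBF2 did not (adjusted p = 0.0515), and the difference between the genes was not tested. INSIG1, itself an SREBP target that retains SCAP, was 49.3 ± 11.6 CPM in vehicle tumors, 36.1 ± 4.99 CPM at 2 h, 33.4 ± 5.07 CPM after 8 h and 32.3 ± 13.1 CPM at 48 h (SD, n = 4 each). Its changes from vehicle were -0.61 to 0.03 over the 5 times, with none called at a single time. Over the 5 times together INSIG1 passed the F test (adjusted p = 0.0485).

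Of the other members, SQLE, ACAT2 and FDPS are given as means ± SD (n = 4 each). SQLE averaged 129 ± 40.4 CPM in vehicle tumors, 64.8 ± 21 CPM at 2 h, 95.1 ± 18.9 CPM after 4 h, 38.7 ± 9.61 CPM at 8 h, 71.3 ± 23.1 CPM after 24 h and 85.2 ± 45.5 CPM at 48 h. ACAT2 averaged 55.4 ± 16.3 CPM in vehicle tumors, 26.6 ± 8.12 CPM at 2 h, 44.7 ± 9.15 CPM after 4 h, 21.6 ± 7.17 CPM at 8 h, 23 ± 6.33 CPM after 24 h and 28.4 ± 14 CPM at 48 h. FDPS averaged 191 ± 47.4 CPM in vehicle tumors, 117 ± 20.4 CPM at 2 h, 178 ± 33 CPM after 4 h, 123 ± 17 CPM at 8 h, 116 ± 20.7 CPM after 24 h and 132 ± 31.4 CPM at 48 h. All of them had their 4 h mean above the 2 h and 8 h means, and their 24 and 48 h means below that of vehicle. Not every member had this course. EBP averaged 66.5 CPM at 8 h and 56 CPM in vehicle tumors, the MVD mean was 32.1 CPM at 4 h and 34.3 CPM at 2 h, and MVK averaged 30.5 CPM at 2 h, 28.2 CPM after 4 h and 28.6 CPM at 8 h.

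FASN averaged 124 ± 43.9 CPM in vehicle tumors, 74.5 ± 12.1 CPM at 2 h, 86.2 ± 33.4 CPM after 4 h, 55.2 ± 6.69 CPM at 8 h, 75.8 ± 25.9 CPM after 24 h and 94 ± 41.9 CPM at 48 h. FADS2 averaged 70.2 ± 19 CPM in vehicle tumors, 39.3 ± 6.01 CPM at 2 h, 52.1 ± 14.6 CPM after 4 h, 37.3 ± 8.84 CPM at 8 h, 38.8 ± 5.8 CPM after 24 h and 43.6 ± 12.8 CPM at 48 h. ACACA averaged 65.2 ± 13.1 CPM in vehicle tumors, 47.3 ± 9.3 CPM at 2 h, 86.2 ± 13.7 CPM after 4 h, 47.2 ± 4.57 CPM at 8 h, 57 ± 13.3 CPM after 24 h and 57.9 ± 21.8 CPM at 48 h. ACACA alone of these had its highest mean at 4 h, above that of vehicle, although that change of 0.40 ± 0.22 was not called.

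Of the 31 members 9 were called lower at no time, 5 at 1 time, 7 at 2, 9 at 3 and ELOVL5 at 4. Of all genes tested 13.6, 8.39, 23.7, 13.8 and 4.46% were called lower at 2, 4, 8, 24 and 48 h. How many of these genes were called at several times was not counted. In the sterol arm those called at no time in that direction were MVK, the mevalonate kinase (-0.46 to -0.10), EBP, a sterol isomerase (-0.39 to 0.25), HSD17B7, a sterol ketoreductase (-0.57 to -0.21), and TM7SF2. In the fatty acid arm they were ACACA (-0.47 to 0.40) and FADS1 (-1.33 to 0.16). PMVK and MVD, the kinase and decarboxylase that follow MVK, fell at 8 h by 0.75 ± 0.18 and 0.48 ± 0.20, the call of MVD being lost on leaving out any of vehicle tumors 1, 2 and 4 or 8 h tumors 1, 2 and 3. The MVD call was kept in 5 of 11 other alternatives, and was lost with DESeq2. NSDHL, which acts on the demethylated sterol, fell at 8 h (-0.71 ± 0.21). FADS1 and FADS2 overlap on opposite strands, as do MVK, IDI1, FDPS, DHCR7, ACAT2, SREBF1, SREBF2 and STARD4 with other tested genes. Without a known strand setting their reads may be shared. On the same strand CYP51A1 overlaps AC000120.3, TM7SF2 overlaps VPS51 and FADS2 overlaps FEN1, and a strand setting would not separate those reads. FDPS has 8 named pseudogenes.

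The arms were set side by side in each tumor by their mean log2 CPM. The sterol arm averaged 6.10 ± 0.34 in vehicle tumors, 5.52 ± 0.24 at 2 h, 5.95 ± 0.21 after 4 h, 5.38 ± 0.24 at 8 h, 5.50 ± 0.25 after 24 h and 5.63 ± 0.39 at 48 h (SD, n = 4 each). The fatty acid arm averaged 6.15 ± 0.40 in vehicle tumors, 5.46 ± 0.25 at 2 h, 5.96 ± 0.22 after 4 h, 5.25 ± 0.38 at 8 h, 5.51 ± 0.29 after 24 h and 5.55 ± 0.44 at 48 h. In TPM the sterol arm summed to 751 ± 136 at 2 h and 690 ± 120 after 8 h, against 1350 ± 282 in vehicle tumors, and the fatty acid arm to 162 ± 27.8 at 2 h and 137 ± 34.6 after 8 h, against 278 ± 60.3 in vehicle tumors.

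The sterol mean minus the fatty acid mean was -0.05 ± 0.07 in vehicle tumors, 0.06 ± 0.20 at 2 h, -0.01 ± 0.19 after 4 h, 0.13 ± 0.17 at 8 h, -0.01 ± 0.05 after 24 h and 0.08 ± 0.07 at 48 h. Its change from vehicle was therefore 0.03 to 0.18, smaller than the change of either arm at every time. With mean log2(TPM + 1) in place of log2 CPM the change was -0.11 at 2 h, -0.14 after 8 h, -0.09 at 24 h and 0.01 after 48 h, and with medians over the members -0.03 at 8 h, -0.06 after 24 h and 0.01 at 48 h, so no direction between the arms can be read. The highest 24 h and 48 h tumors were tumor 3 in both arms (5.84 and 5.89 at 24 h, 6.11 and 6.05 at 48 h, sterol and fatty acid arm), and 8 h tumor 3 was the lowest (5.03 and 4.71).

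**Figure D3:**
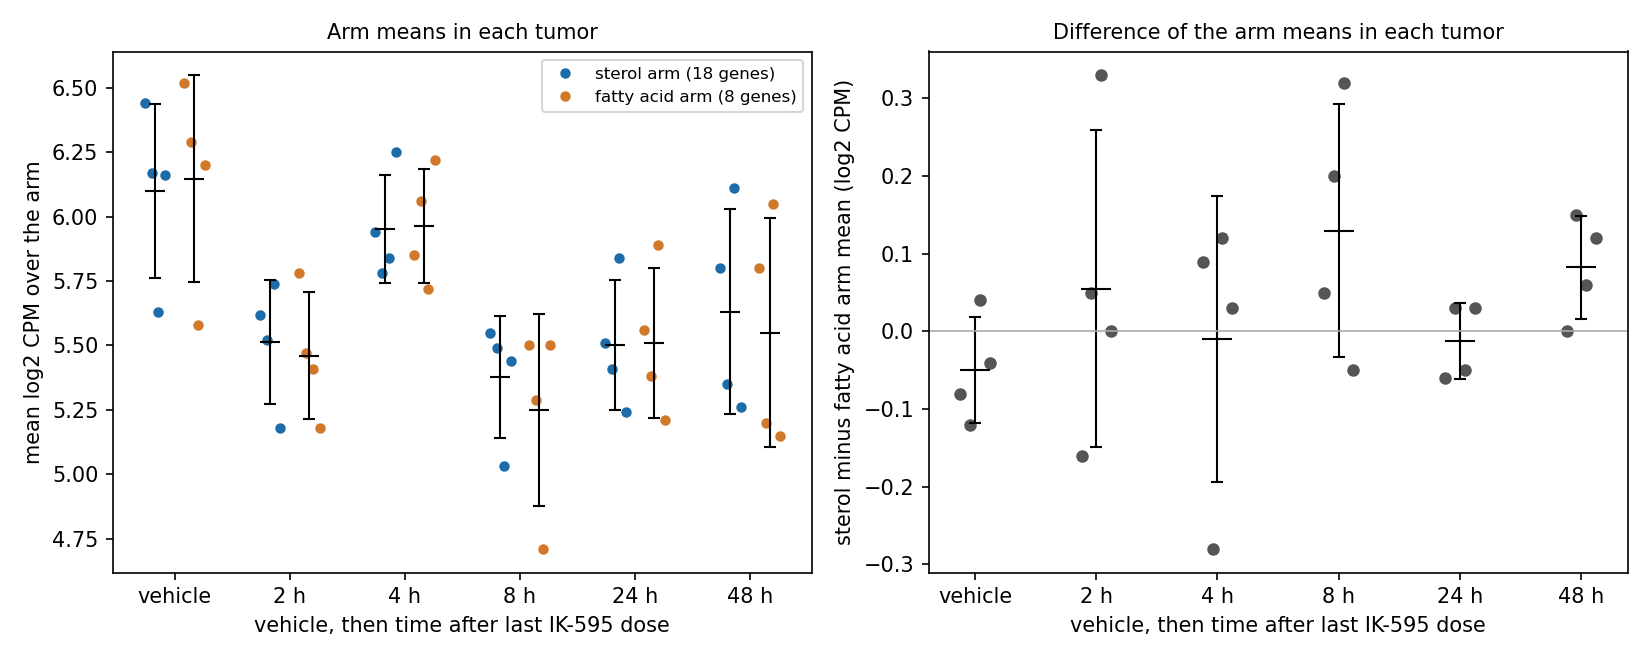
Left, the mean log2 CPM of the 18 sterol and the 8 fatty acid genes in each tumor, from vehicle through 2, 4, 8, 24 and 48 h after the last IK-595 dose; right, the sterol mean minus the fatty acid mean in the same tumors. Points are tumors and bars are the mean and SD of 4; both arms lie lowest at 8 h (5.38 and 5.25, against 6.10 and 6.15 in vehicle tumors), and the difference stays within 0.33 of 0 in all tumors.

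The return at 4 h and the second dip at 8 h were tested between IK-595 tumors, with no vehicle tumor in the contrast. From 2 to 4 h 8 members rose, against 6.89% of all genes called higher: IDI1 (0.93 ± 0.27), SC5D (0.91 ± 0.22), CYP51A1 (0.88 ± 0.27), ACACA (0.87 ± 0.22), ACLY (0.70 ± 0.22), ELOVL5 (0.67 ± 0.23), FDPS and FDFT1 (0.61 ± 0.20 each), with adjusted p from 0.00959 to 0.0456. SREBF1 fell (-0.59 ± 0.18, adjusted p = 0.0324), against 9% of all genes called lower. The count of 8 was 2 without 2 h tumor 2, 2 h tumor 3 or 4 h tumor 4, 1 without 2 h tumor 4 and 3 without 4 h tumor 2. The median change was 0.56 in the sterol arm, 0.54 in the fatty acid arm and 0.00 over all genes.

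From 4 to 8 h 16 members fell, 11 of the sterol arm, 4 of the fatty acid arm and STARD4, against 15.5% of all genes called lower and 11.6% called higher. The largest were IDI1 (-1.36 ± 0.28), SQLE (-1.30 ± 0.34), CYP51A1 (-1.29 ± 0.27), ACAT2 (-1.05 ± 0.33) and ELOVL6 (-1.02 ± 0.22), with adjusted p from 0.00221 to 0.0239. The count was 8 without 4 h tumor 4 or without 8 h tumor 3. IDI1, FDPS, FDFT1, CYP51A1, SC5D, ACACA, ACLY and ELOVL5 thus rose between 2 and 4 h and fell between 4 and 8 h, 2 contrasts that share the 4 h tumors.

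From 8 to 24 h ELOVL6 rose (0.86 ± 0.22, adjusted p = 0.0188), against 5.3% of all genes called higher and 1.58% called lower, a call lost without 8 h tumor 2, 3 or 4 or 24 h tumor 2 or 3. HMGCS1 (0.66 ± 0.24), IDI1 (0.69 ± 0.27) and SQLE (0.88 ± 0.34) had higher means at 24 h than at 8 h and were not called. From 24 to 48 h TM7SF2 fell (-0.72 ± 0.19, adjusted p = 0.0358), against 1.6% of all genes called lower and 2.47% called higher, to 10 ± 0.783 CPM at 48 h, against 16.5 ± 3.56 CPM at 24 h. That call was lost without 24 h tumor 1 or 4 or any 48 h tumor.

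**Figure D4:**
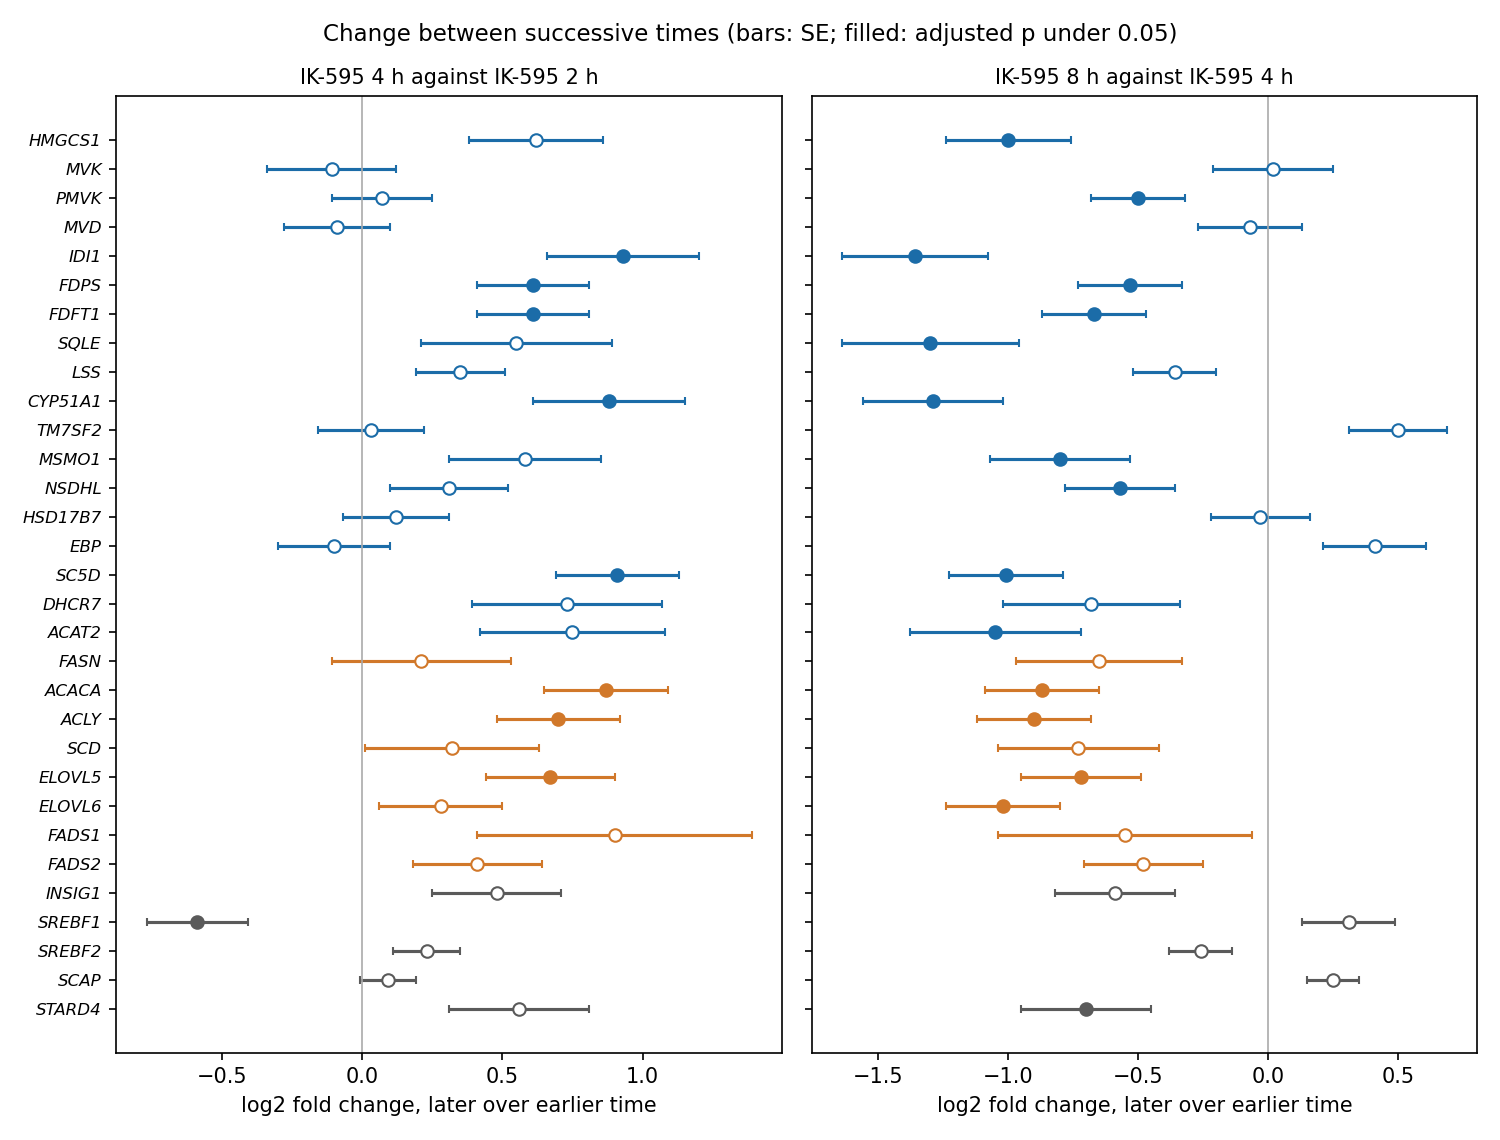
Log2 fold change of each member from 2 to 4 h (left) and from 4 to 8 h (right) in IK-595 tumors, later over earlier time; bars are standard errors, filled points have an adjusted p under 0.05, and colors separate sterol arm, fatty acid arm, and regulators and carrier. On the left 8 members are called higher and SREBF1 lower; on the right 16 are called lower.

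Other genes of the pathway were counted from lists of known function. Of 25 tested further SREBP targets and helpers 10 fell at 2 h, 5 after 4 h, 13 at 8 h, 11 after 24 h and 3 at 48 h, with medians of -0.30, -0.03, -0.36, -0.45 and -0.26. The shares of all genes called lower were 13.6, 8.39, 23.7, 13.8 and 4.46% at these times. LBR, which shares the sterol C14 reductase step with TM7SF2, fell at all 5 times (-1.23 ± 0.18 at 2 h, -1.0 ± 0.18 after 4 h, -1.47 ± 0.18 at 8 h, -0.81 ± 0.18 after 24 h and -0.67 ± 0.18 at 48 h). NPC1, which moves cholesterol out of lysosomes, fell at 2 to 24 h, by 0.59 ± 0.13 to 0.98 ± 0.13. FABP5, a fatty acid carrier, fell at all 5 times, most at 24 h (-1.91 ± 0.27). These genes were called lower at 4 h, when no member was. MBTPS2, a protease that frees SREBPs, fell at 2 h (-0.90 ± 0.27) and 8 h (-1.05 ± 0.27). ACACB, the mitochondrial counterpart of ACACA, rose at all 5 times, by 0.62 ± 0.17 at 48 h to 1.33 ± 0.17 at 8 h. The other rises called in this list were of SLC25A1, the mitochondrial citrate carrier, at 8 h (0.35 ± 0.12), and LPCAT3, a phospholipid acyltransferase, at 24 h (0.71 ± 0.18).

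Of 7 sterol efflux and LXR target genes 2 rose at 2 h, 1 after 4 h, 2 at 8 h, 1 after 24 h and 0 at 48 h by edgeR, and 13.4, 6.74, 20.6, 13.7 and 5.52% of all genes were called higher at these times. They were NR1H3, which encodes the sterol sensor LXR-alpha (0.51 ± 0.13 at 2 h, 0.59 ± 0.13 after 8 h and 0.57 ± 0.13 at 24 h), and MYLIP, an LXR-induced ubiquitin ligase (1.11 ± 0.33 after 2 h, 0.99 ± 0.33 at 4 h and 0.99 ± 0.33 after 8 h). Of 15 fatty acid oxidation genes 2 rose at 2 h, 2 after 4 h, 3 at 8 h, 5 after 24 h and 0 at 48 h. Those at 24 h were ACADVL (0.69 ± 0.14), CPT1A (0.64 ± 0.19), ETFDH (0.51 ± 0.14), CPT2 (0.41 ± 0.14) and ACADS (0.39 ± 0.10). CPT1A and CPT2 carry fatty acids into mitochondria. ACADM, a medium-chain dehydrogenase, fell at 2 h (-0.63 ± 0.19) and 48 h (-0.74 ± 0.19), and HADHA, part of the trifunctional protein, at 8 h (-0.55 ± 0.19). Of 10 fat storage and release genes 3 rose and 1 fell at 2 h, 2 rose and 1 fell after 4 h, 4 rose and 2 fell at 8 h, 3 rose and 2 fell after 24 h, and 2 rose at 48 h. MGLL, a monoglyceride lipase, rose at all 5 times (0.43 ± 0.12 at 4 h to 0.91 ± 0.12 after 48 h), and GPAM, which starts glycerolipid synthesis, fell at 2 h (-0.79 ± 0.21), 8 h (-1.09 ± 0.21) and 24 h (-0.67 ± 0.21). The lipases PNPLA2 (2 and 8 h, 1.08 ± 0.22 and 1.12 ± 0.22) and LIPE (8 and 24 h, 1.29 ± 0.47 and 1.42 ± 0.47) were higher, as were the triglyceride synthases DGAT1 (2 and 48 h) and DGAT2 (4, 8 and 24 h), by 0.62 to 0.96. HILPDA, a lipid droplet protein, was lower at 4 h (-1.24 ± 0.33) and 24 h (-1.29 ± 0.33), and PLIN3, another, at 8 h (-0.76 ± 0.18).

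Proliferation markers were lower along with the members at 2, 8 and 24 h. At 48 h the markers had their lowest mean and 2 of 31 members were called lower. The arm means then lay at -0.47 (sterol) and -0.60 (fatty acid) from vehicle. From 24 to 48 h no marker was called lower and no member higher, so whether the courses parted cannot be read. The 5 markers (MKI67, TOP2A, PLK1, CCNB1 and BUB1) had a mean log2 CPM of 6.53 ± 0.45 in vehicle tumors, 4.76 ± 0.44 at 2 h, 5.92 ± 0.20 after 4 h, 5.07 ± 0.65 at 8 h, 5.44 ± 0.37 after 24 h and 4.68 ± 0.56 at 48 h (SD, n = 4 each). All 5 were called lower at 2, 8, 24 and 48 h. Vehicle tumor 3 and 8 h tumor 3 were the lowest of their groups, and 24 h and 48 h tumor 3 the highest, in all 5 markers, as in the arm means. In a fit with this mean as a covariate, chosen after seeing the data, 0 members were called lower at 2 h, 1 after 8 h, 0 at 24 h and 0 after 48 h. Since the markers also differ between IK-595 and vehicle tumors, treatment and marker level cannot be told apart in that fit.

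The 5 MAPK output genes (DUSP4, DUSP6, SPRY4, ETV5 and PHLDA1) had a different course, with a mean of 7.22 ± 0.08 in vehicle tumors, 3.90 ± 0.22 at 2 h, 2.11 ± 0.36 after 4 h, 2.34 ± 0.66 at 8 h, 5.85 ± 0.21 after 24 h and 6.64 ± 0.27 at 48 h. Their mean was lowest at 4 h, when the arms lay nearest to vehicle, but the 4 h and 8 h means lay within the spread of the tumors. From 4 to 8 h SPRY4 alone of them was called (1.48 ± 0.37). Against vehicle ETV5 was lower at 8 h (-4.93 ± 0.36) than at 4 h (-3.98 ± 0.34).

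**Figure D5:**
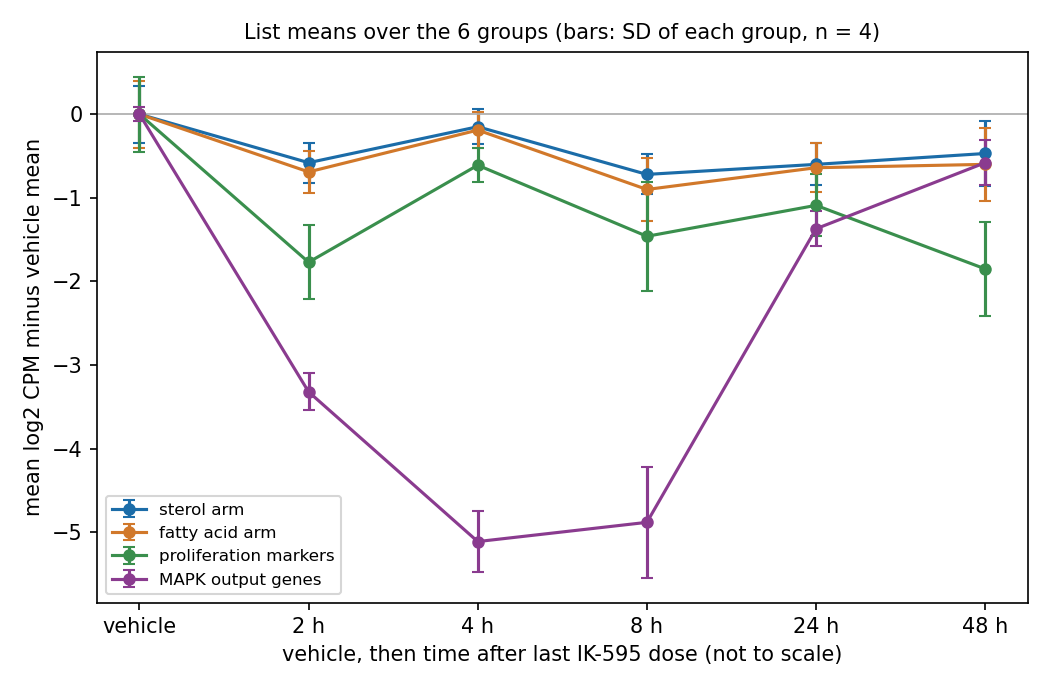
Mean log2 CPM of the sterol arm, the fatty acid arm, 5 proliferation markers and 5 MAPK output genes, each minus its vehicle mean, from vehicle through 2, 4, 8, 24 and 48 h after the last IK-595 dose (times not to scale; bars are the SD of 4 tumors). At 4 h the arms lie at -0.15 and -0.18 and the proliferation markers at -0.61, while the MAPK output genes lie at -5.10.

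Markers of host cells were uneven. Skeletal muscle markers (6 of 8 tested) summed to 23.1 to 356 CPM in vehicle tumors, 11.6 to 4780 CPM at 2 h, 50.7 to 2560 CPM after 4 h, 31.8 to 3000 CPM at 8 h, 18.5 to 3080 CPM after 24 h and 11.4 to 20.3 CPM at 48 h. Adipocyte markers (6 of 8 tested) summed to 177 to 582 CPM in IK-595 tumors, against 75.4 to 115 CPM in vehicle tumors. That sum was mostly CFD, the adipsin gene, which rose at all 5 times, while ADIPOQ was at 0 in all tumors and LEP at most 0.319 CPM. Against vehicle PLIN1, at most 8.81 CPM, was called higher at 8 h (2.28 ± 0.72) and 24 h (2.22 ± 0.71). CIDEC was called lower at 24 h (-1.17 ± 0.26). Fibroblast and pericyte markers (8 of 8 tested) reached 29600 CPM in 4 h tumor 2, against 989 to 2000 CPM in vehicle tumors, with 3 called higher at 4 h. Endothelial markers summed to at most 27.4 CPM, myeloid to at most 185 CPM, red cell to at most 2.52 CPM and pancreatic acinar to at most 0.733 CPM in any tumor. With the mean of adipocyte and muscle markers as a covariate, 13 members were called lower at 2 h, 0 after 4 h, 19 at 8 h, 13 after 24 h and 2 at 48 h.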

How the data were processed

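RNA of 24 xenograft tumors was polyA-selected, prepared with NEBNext Ultra II and sequenced in pairs on a NovaSeq, per the labels. The estimated counts per gene and the TPM values were deposited by the authors, with Salmon 0.14.1, bcl2fastq 2.17, FastQC 0.12.1 and the build GRCh38.p13 named as tools and genome, per the submitters' processing notes. Not given in the sources used here are the annotation release, the strand setting and whether reads from mouse cells were removed. TPM values sum to the same total in each tumor and were used for levels per length and as an alternative.

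Groups came from the sample titles. Symbols and coordinates came from GENCODE 29 (GRCh38), and 141 gene IDs had no symbol. Estimated counts were rounded to whole numbers and tested with edgeR 4.0.16 (R 4.3.3): TMM scaling, filterByExpr (18242 of 60230 genes, 99.9% of counts), robust quasi-likelihood fit over all tumors without covariates, Benjamini-Hochberg adjustment over all genes and a threshold of 0.05. A prior count of 2 entered log2 CPM. The standard error is the fold change divided by the root of F, with a median of 0.23. Contrasts were each IK-595 time against vehicle, successive times, and all 5 times jointly by an F test. DESeq2 1.42.0, limma 3.58.1, other scalings, no filter, log2(TPM + 1) and log2(TPM + 0.1), the 2 groups alone, a replicate block, host and proliferation covariates and leaving out each tumor were alternatives. The scripts were checked on simulated data.

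The members and lists were chosen with earlier results of these data known. Values of every tumor are given for the 4 sterol, 3 fatty acid and 3 regulator members with the smallest F test p, and up to 5 called members in each direction are named per comparison with the largest changes; further members called are named to account for all. Some genes of the other SREBP target list are counted and not reported by name. Replicate numbers were compared across groups: of 60 same-numbered pairs 20 correlated above 0.1 (mean r -0.013), so the numbers do not pair tumors.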

Additional observations from a re-analysis of the deposited data

Results flagged for a closer look

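In groups of 4 tumors a tumor is listed where its gap to the nearest tumor exceeded Dixon's 95% critical value, as a share of the group's range. Of 204 groups examined 9 were, and chance lists about 1 in 20. The single high tumors were 24 h tumor 1 for MVK (44.8 CPM, next 25) and for SREBF1 (62 CPM, next 45.1), 2 h tumor 1 for ELOVL5 (65.6 CPM, next 45.1), 4 h tumor 2 for FADS1 (15 CPM, next 3.65) and 24 h tumor 3 for FADS2 (47.5 CPM, next 36.4). The single low tumors were 8 h tumor 3 for DHCR7 (25.1 CPM, next 50.2), ACAT2 (10.9 CPM, next 24.7) and INSIG1 (25.8 CPM, next 35.3), and 2 h tumor 4 for FADS2 (30.3 CPM, next 42.1).

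Effects at successive times differed by the test of the difference itself. From 2 to 4 h the log2 changes were 0.93 for IDI1, 0.61 for FDPS, 0.61 for FDFT1, 0.88 for CYP51A1, 0.91 for SC5D, 0.87 for ACACA, 0.70 for ACLY, 0.67 for ELOVL5 and -0.59 for SREBF1. From 4 to 8 h they were -1.0 for HMGCS1, -0.50 for PMVK, -1.36 for IDI1, -0.53 for FDPS, -0.67 for FDFT1, -1.30 for SQLE, -1.29 for CYP51A1, -0.80 for MSMO1, -0.57 for NSDHL, -1.01 for SC5D and -1.05 for ACAT2. In the same interval they were -0.87 for ACACA, -0.90 for ACLY, -0.72 for ELOVL5, -1.02 for ELOVL6 and -0.70 for STARD4. From 8 to 24 h the change was 0.86 for ELOVL6, and from 24 to 48 h -0.72 for TM7SF2.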

How the results depend on the processing

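The dip at 8 h was the steadiest count: 16 to 23 members were called lower on leaving out each tumor, 18 to 22 under the alternatives planned beforehand. On leaving out each tumor the count ran from 2 to 19 at 2 h, 6 to 20 after 24 h, 0 to 10 at 48 h, 1 to 9 higher from 2 to 4 h, 8 to 15 lower from 4 to 8 h, 0 to 1 from 8 to 24 h and 0 to 1 from 24 to 48 h. At 48 h it was 5 with DESeq2, 1 with upper-quartile scaling, 1 without the low-count filter, 0 with log2(TPM + 1) and 0 with log2(TPM + 0.1). With only the 2 groups compared it was 0 from 8 to 24 h and 0 from 24 to 48 h. With a replicate block 12 members were lower at 2 h, 0 after 4 h, 19 at 8 h, 13 after 24 h and 2 at 48 h, 6 were higher from 2 to 4 h and 14 lower from 4 to 8 h. The replicate numbers share no stated origin. Upper-quartile scaling moved the median of all genes to 0.13 at 2 h, 0.21 after 8 h and 0.15 at 24 h. The change of the sterol minus the fatty acid mean was -0.11 at 2 h, -0.14 after 8 h, -0.09 at 24 h and 0.01 after 48 h with log2(TPM + 1), and -0.03 at 8 h, -0.06 after 24 h and 0.01 at 48 h with medians over members. The cause of these shifts was not tested.

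With the proliferation covariate, chosen after seeing the data, 0 members were lower at 2 h, 1 after 8 h, 0 at 24 h and 0 after 48 h. There 19 called values changed sign, none past the threshold. At 2 h they were FDPS 0.17, FDFT1 0.20, SQLE 0.62, CYP51A1 0.21, SC5D 0.30, ACAT2 0.62, ACLY 0.30, SCD 0.72, ELOVL5 0.21 and FADS2 0.39. At 8 h they were MVD 0.04, FDPS 0.09, MSMO1 0.08, NSDHL 0.14, SC5D 0.04 and FADS2 0.08, at 24 h MSMO1 0.00 and DHCR7 0.04, and at 48 h ELOVL5 0.22. The covariate and the treatment differ together between groups and cannot be told apart. A standard error of about 0.23 at 4 tumors a group limits what changes under about 0.5 can show.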
